A study of Mus musculus with 27 samples.

Results

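The proteasome subunits examined here are the genes whose symbols begin with Psma, Psmb, Psmc or Psmd followed by a digit, without Psmb8 and Psmb9, on probes that the array annotation assigns to a single symbol. The rule found 77 probes of 38 genes among 34958 such probes of 18194 genes. Of these, 49 probes of 35 genes passed the filter on low signal, a mean above log2(100), or 6.64, in at least 1 diet. The filter kept 6478 genes in all. The rule used symbols and no measured value.

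Affymetrix arrays that cover the mouse genome measured liver RNA from 27 mice, n = 3 on each of 9 diets, with an array for each mouse. All mice were male C57BL/6 with a labelled age of 10 weeks, and each ate its diet for 3 weeks before liver was taken in the morning. Mice on the AIN-93 purified diet served as control. The other diets were lab chow, a natural ingredient diet, a diet with 60% fructose, a high-fat diet, a Western diet with 42% of calories from fat and added sucrose, an atherogenic diet rich in fat, sucrose and cholesterol with cholic acid, a diet deficient in essential fatty acids (EFA-deficient), and a low n-3 diet with 7% sunflower oil. Diet-restricted mice received 75% of the ad libitum amount of lab chow, so their difference from control includes that of the chow, and they were also compared with lab chow itself. For the low n-3 mice, the array titles and diet tags mention DHA supplementation instead, and the description, which gives the sunflower oil, decided their group. Values are log2 signals, so levels were compared between diets within a gene and not between single genes. "Higher", "lower", "rose" and "fell" below mean an adjusted p under 0.05 in limma, and percent of control is the ratio of mean signals on the log scale.

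The proteasome degrades proteins that carry chains of ubiquitin. Its core particle is a stack of rings, in which outer rings of alpha subunits gate a chamber formed by beta subunits, and the beta1, beta2 and beta5 subunits cut the substrate. A regulatory particle caps the core. Its base holds a ring of ATPases that unfold the substrate and non-ATPase subunits that receive ubiquitin chains and shuttle proteins, and its lid removes ubiquitin. Dedicated chaperones assemble the base and then leave. Interferon-responsive subunits can take the places of the catalytic subunits to form the immunoproteasome, which makes peptides for presentation on class I molecules. The factors Nfe2l1 and Nfe2l2 act through antioxidant response elements to raise proteasome transcription, and hepatocytes depend on proteasomes for the turnover of short-lived regulators and damaged proteins.

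Promoters of 4 genes are shown because Psmd4 and Psmd9 had the largest differences from control, Psmb5 was higher on 2 diets, and Psmb10 is the immune subunit among the members. Each is the stretch of 250 bases before the transcription start in RefSeq, build GRCm38.p6, written 5′ to 3′ on the gene's strand. Capitals mark matches on either strand to TGACNNNGC, the core of the antioxidant response element, to CCAAT, the box bound by NF-Y, or to TTCNNNGAA, the spaced palindrome bound by STAT factors. These motifs do not overlap in the stretches shown.
Psmd4 (minus strand, chr3:95042615-95042864): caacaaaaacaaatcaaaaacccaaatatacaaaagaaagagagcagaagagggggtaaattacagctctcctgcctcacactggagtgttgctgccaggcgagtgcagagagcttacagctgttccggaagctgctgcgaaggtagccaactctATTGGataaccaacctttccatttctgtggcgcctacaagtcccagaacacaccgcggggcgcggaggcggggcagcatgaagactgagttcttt
Psmd9 (plus strand, chr5:123227940-123228189): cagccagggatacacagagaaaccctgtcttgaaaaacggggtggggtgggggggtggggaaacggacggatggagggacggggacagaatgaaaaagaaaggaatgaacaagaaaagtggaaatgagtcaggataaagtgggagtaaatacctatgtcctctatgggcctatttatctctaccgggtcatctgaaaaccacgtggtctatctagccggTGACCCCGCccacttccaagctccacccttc
Psmb5 (minus strand, chr14:54617996-54618245): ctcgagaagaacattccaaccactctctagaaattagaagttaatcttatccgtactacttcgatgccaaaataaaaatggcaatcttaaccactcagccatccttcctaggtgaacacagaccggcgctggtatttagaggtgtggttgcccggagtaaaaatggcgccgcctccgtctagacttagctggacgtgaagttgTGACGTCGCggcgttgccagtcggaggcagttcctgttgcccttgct
Psmb10 (minus strand, chr8:105938393-105938642): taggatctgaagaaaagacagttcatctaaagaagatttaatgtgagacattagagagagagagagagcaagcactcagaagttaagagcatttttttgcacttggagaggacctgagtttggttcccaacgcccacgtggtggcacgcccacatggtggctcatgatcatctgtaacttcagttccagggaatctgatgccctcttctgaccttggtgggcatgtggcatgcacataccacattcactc

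The Psmd4 promoter held CCAAT on its other strand, 95 bases before the start. The Psmd9 and Psmb5 promoters each held TGACNNNGC, 31 and 47 bases before the start, and the Psmb10 promoter held none of the 3 motifs. A promoter sequence was available for 31 of the 38 members. A member was counted once if any promoter of the gene matched, while all promoters were counted singly, so the shares below differ in unit. TGACNNNGC was in 5 of these 31 (16.1%), Psmb5, Psmb6, Psmc6, Psmd9 and Psmd12, and in 10.2% of all 32851 promoters of that length. CCAAT was in 13 of 31 (41.9%) and in 33.8% of all promoters, and TTCNNNGAA was in 0 of 31 and in 7.02% of all. A match is a description of the letters and not evidence of binding.

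The tissue carried the markers of its label. All 9 hepatocyte markers on the array passed the filter, with a summed signal of 348332 to 422119 per array. Array medians over kept probes lay between 8.22 and 8.38. No T or NK cell marker (0 of 11) and no neutrophil marker (0 of 6) passed the filter, although summed neutrophil signal reached 1639 on atherogenic replicate 2 and 3498 on low n-3 replicate 2, against 34 to 43 in control. Of the Kupffer cell markers, 10 of 14 passed, and their summed signal is given below beside the immunoproteasome genes. The 1 kept B cell marker of 4, Ighm, was lower on the Western and atherogenic diets (log2 differences of -2.55 and -2.94). Of 7 kept markers of sinusoidal endothelium, 2 were lower on lab chow and 1 each on high fat, Western, the atherogenic diet and under diet restriction, and of 5 kept stellate cell markers 1 was lower under diet restriction. Lower calls over all genes were 2.19% on lab chow, 3.33% on high fat, 4.48% on Western, 5.88% on atherogenic and 16.0% under restriction. Summed stellate signal on atherogenic replicates 1, 2 and 3 was 6272, 1686 and 5709, against 4047 to 5303 in control. The part of these cells in the results was not tested. In whole liver, fewer cells of a type and less RNA per cell cannot be told apart.

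Most proteasome transcripts held nearly the same level on every diet. The moderated F test over the 9 diets called 12 of 35 members (34.3%) and 71.6% of all kept genes. Diet means of a member spanned 0.41 on the log2 scale at the median, against 0.67 over all kept genes, while the standard deviation between mice of a diet was 0.16 and 0.18. The span was under 0.5 for 23 members (65.7%) and for 30.1% of all genes. Median signal was 10.63 for members and 8.12 for all kept genes, and the part of signal level in the narrower span was not tested. Psma3, an alpha ring subunit, had the smallest span of the members, 0.14, with diet means from 12.96 on lab chow to 13.10 on the EFA-deficient diet. Psma6 (0.17), Psmd6 (0.20) and Psma2 (0.20) followed. At the other end stood the chaperone Psmd9 (1.5), the immune subunit Psmb10 (1.23) and the ubiquitin receptor Psmd4 (1.05).

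Over the 8 diets against control, 13 of 280 member tests passed (4.64%), 9 of them higher and 4 lower, against 9.66% of the tests of all genes. Arrays of a diet that all lay outside the range of the control arrays also occurred without a call, as for Psmc4 on high fat. The share of such separation over all genes was not counted. Of the 35 members, 10 were called on at least 1 diet, 3 of them on 2 diets, and 25 were called on none. All 8 comparisons share the same 3 control arrays. Diet restriction had 6 members higher and 1 lower (17.1% and 2.86%), against 13.5% and 16.0% of all genes. High fat had 2 higher and none lower, against 6.00% and 3.33%. The atherogenic diet had none higher and 2 lower, against 9.03% and 5.88%. Western had 1 higher and none lower (all genes 4.31% and 4.48%), and high fructose had none higher and 1 lower (1.17% and 2.73%).

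**Figure D1:**
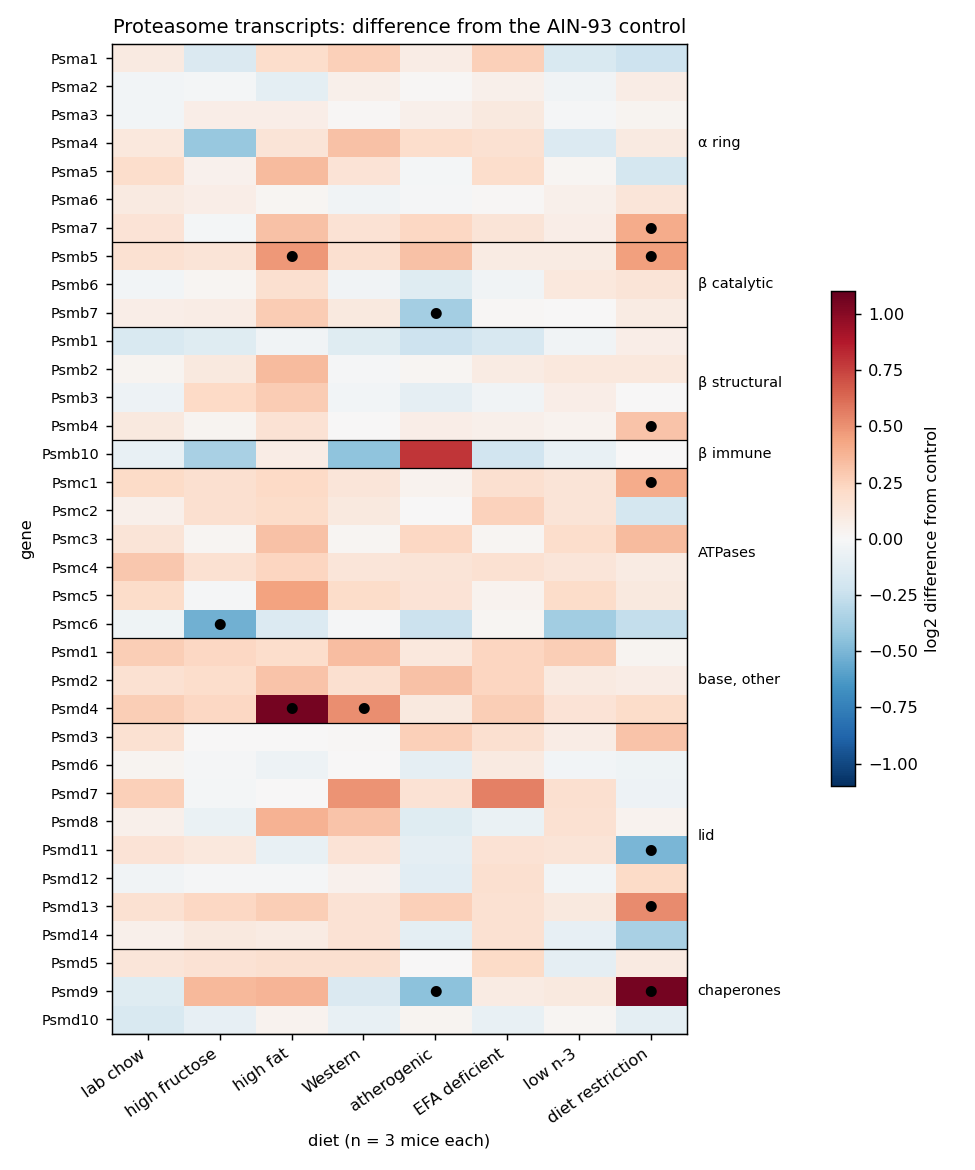
Log2 difference from the AIN-93 control for the 35 kept proteasome genes (rows, grouped by position in the particle) on 8 diets (columns), with n = 3 mice per diet, red for higher and blue for lower; dots mark an adjusted p under 0.05. The 13 dots fall on 10 genes, 7 of them in the diet restriction column.

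On lab chow, the EFA-deficient diet and the low n-3 diet, limma called 0 members and Dunnett's test also called 0. All genes were called higher and lower in 2.02% and 2.19% of cases on lab chow, 3.04% and 2.47% on the EFA-deficient diet, and 0.340% and 0.726% on the low n-3 diet. At an unadjusted p under 0.05 in limma there were 2 members on lab chow, Psmc1 and Psmc4, against 15.5% of all genes. There was 1 on the EFA-deficient diet, Psmd7 (147%), against 18.9%, and 1 on the low n-3 diet, Psmc6 (77.0%), against 10.0%.

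The alpha ring gates the core. Its 7 kept genes, Psma1 to Psma7, had median differences from control between -0.02 on high fructose and 0.15 on the Western diet. Psma7, the alpha4 subunit, was the member of the ring that rose in a comparison with control. It measured 10.06, 10.25 and 10.40 in control and 10.52, 10.77 and 10.66 under diet restriction. Every restricted mouse lay above every control mouse, with a mean of 133% of control and a 95% confidence interval of 114 to 155 (adjusted p = 0.014). The call was lost without control replicate 1 (adjusted p = 0.082) and without diet restriction replicate 2 (adjusted p = 0.062). Taken alone, its kept probes had adjusted p of 0.0089 and 0.066 in limma. High-fat mice, at 10.56, 10.51 and 10.61, were also above control, at 125% (adjusted p = 0.055). Against lab chow, Psma7 under diet restriction was at 120% (adjusted p = 0.057) and was not called.

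Psma5, the alpha5 subunit, was not called against control on any diet but was lower under diet restriction than on lab chow. It measured 10.84, 10.63 and 10.58 on lab chow and 10.05, 10.53 and 10.34 under restriction, which is 76.9% of lab chow (64.7 to 91.4, adjusted p = 0.017). Its groups did not overlap, and restricted replicate 1 was the lowest array of all diets. Without that array the adjusted p was 0.12, and without lab chow replicate 1 it was 0.087. The F test also called Psma4 (adjusted p = 0.0039) and Psma1 (adjusted p = 0.023), neither of which passed against control on any diet. Psma4, the alpha3 subunit, had its lowest mean on high fructose, 10.76, and its highest on the Western diet, 11.50.

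Psma8, the testis form of alpha4, did not pass the filter, with no array above 3.45. Psmb11, the catalytic subunit of thymic cortex, lay at the lowest value of the arrays, 2.29, on 22 of 27 arrays and never above 2.92. Psmc3ip also stayed below the filter, with a highest diet mean of 2.48. Its name fits the rule, but it encodes a partner of meiotic recombinases and not a proteasome subunit.

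Of the 3 catalytic beta genes, Psmb5 and Psmb7 passed against control on some diet, and differences between the genes' responses were not tested. Psmb5 carries the beta5, chymotrypsin-like site. Its control arrays measured 11.41, 11.63 and 11.64, high-fat arrays 12.14, 12.01 and 11.96, and diet-restricted arrays 11.76, 12.22 and 12.05. Both diets lay wholly above control, at 140% on high fat (115 to 169, adjusted p = 0.024) and 137% under diet restriction (113 to 166, adjusted p = 0.033). Against lab chow, diet restriction gave 121% (adjusted p = 0.11) with overlapping arrays.

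Both calls of Psmb5 depended on single arrays. The high-fat call was lost without control replicate 1 (adjusted p = 0.099) or high fat replicate 1 (adjusted p = 0.084). The diet restriction call was lost without any 1 of control replicates 1, 2 and 3 (adjusted p = 0.13, 0.056 and 0.055) or diet restriction replicates 2 and 3 (adjusted p = 0.14 and 0.085).

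Psmb7 carries the beta2, trypsin-like site, and it fell on the atherogenic diet. It measured 8.81, 8.89 and 8.89 in control, 8.92, 9.01 and 8.99 on the Western diet, and 8.53, 8.51 and 8.44 on the atherogenic diet. The atherogenic arrays were the 3 lowest of the 27. Their mean was 77.4% of control (65.4 to 91.6, adjusted p = 0.049) and 71.8% of Western (60.7 to 84.9, adjusted p = 0.0065). The comparison with Western held when any array was left out. The comparison with control, just inside the threshold, was lost without any 1 of its 6 arrays, with adjusted p from 0.075 without control replicate 1 to 0.13 without control replicate 3. Psmb6, with the beta1, caspase-like site, was not called on any diet and differed from control by -0.13 to 0.18.

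**Figure D2:**
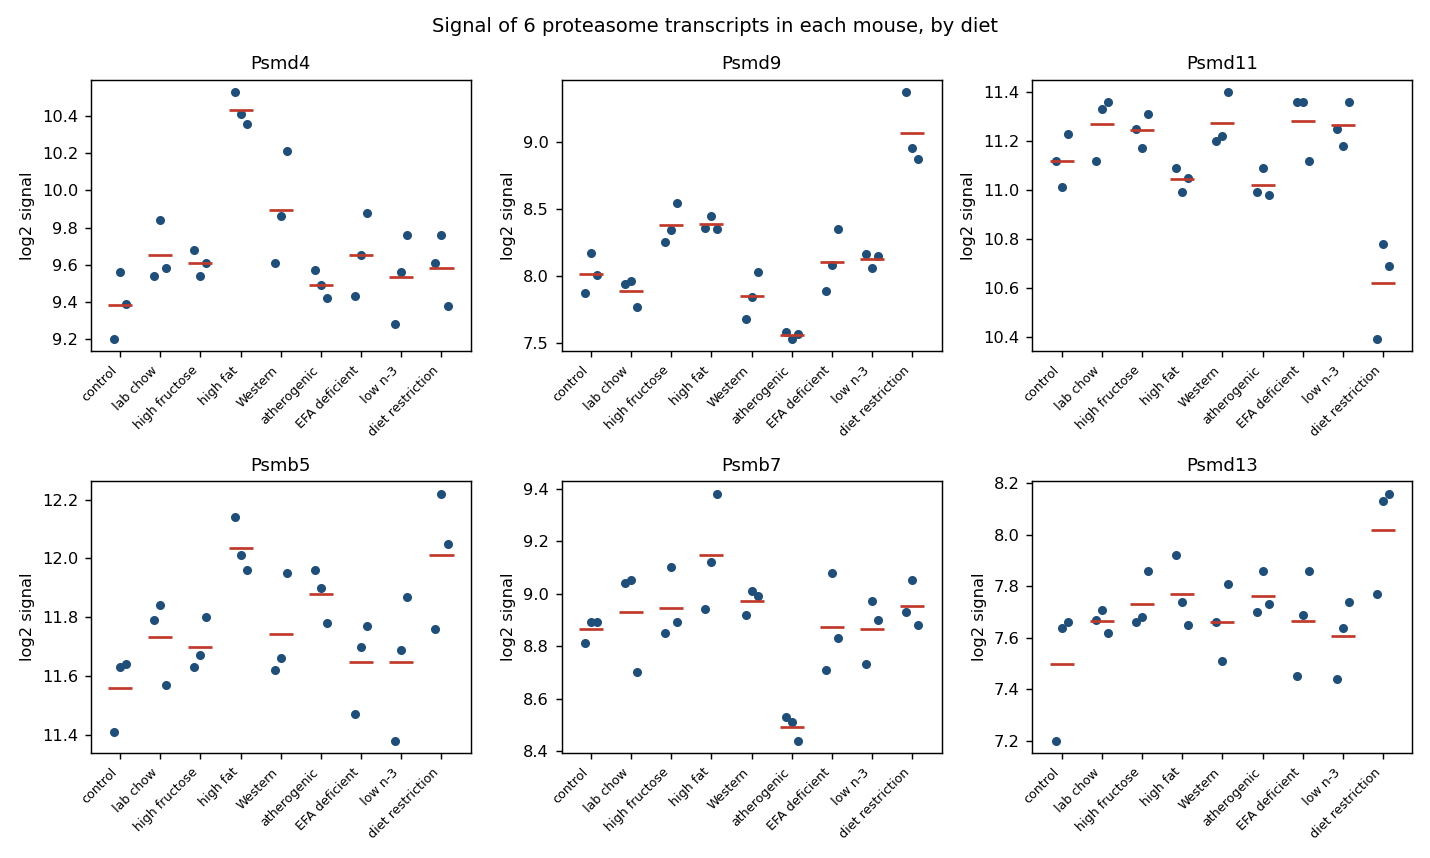
Log2 signal of 6 proteasome genes in each mouse (points) with the mean of 3 mice (red line) on 9 diets; each panel has its own axis, which does not start at 0. Psmd4 stands high on high fat, Psmd9 is high and Psmd11 low under diet restriction, and the atherogenic arrays of Psmb7 lie below all others.

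The 4 structural beta genes, Psmb1 to Psmb4, moved little, with medians from -0.04 to 0.22 over the 8 diets. Psmb4, the beta7 subunit, measured 12.17, 12.32 and 12.38 in control and 12.39, 12.77 and 12.63 under diet restriction. Its groups were barely apart, at 124% of control (108 to 142, adjusted p = 0.048). Neither kept probe passed alone in limma (adjusted p = 0.093 and 0.088). The call was lost without control replicates 1, 2 or 3 (adjusted p = 0.17, 0.089 and 0.060) and without diet restriction replicates 2 or 3 (adjusted p = 0.19 and 0.11). Against lab chow, Psmb4 under diet restriction was at 115% (adjusted p = 0.11), with overlapping arrays.

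Psmb10 encodes beta2i, which takes the place of beta2 in the immunoproteasome, and it was higher on the atherogenic than on the Western diet. It measured 8.25, 8.46 and 8.36 in control, 8.27, 7.71 and 7.77 on the Western diet, and 9.49, 9.45 and 8.49 on the atherogenic diet. Atherogenic replicates 1 and 2 were the highest of the 27 arrays, while replicate 3 lay just above control. Psmb10 was 234% of Western (159 to 344, adjusted p = 0.0028), a call that held when any array was left out. Against control it was 173% (117 to 254, adjusted p = 0.067).

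Psmb8 and Psmb9, the beta5i and beta1i subunits that lie outside the rule, were compared on the same arrays. Psmb8 measured 9.18, 9.37 and 8.32 on the atherogenic diet and 8.16, 7.90 and 8.05 on the Western diet, or 189% of Western (adjusted p = 0.034). Psmb9 was 148% of control on the atherogenic diet (adjusted p = 0.25). Its highest mean was on high fat, where the arrays lay at 8.52 to 8.87, above all control arrays, at 182% of control (119 to 277, adjusted p = 0.066). Under diet restriction these genes parted from Psmb10. Psmb9 fell to 31.2% of control (20.5 to 47.6, adjusted p = 0.00058) and Psmb8 to 44.2% (29.0 to 67.4, adjusted p = 0.012), while Psmb10, at 8.12, 8.81 and 8.13, had a log2 difference of 0.00 and overlapped control. The differences between these genes' responses were not tested.

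Psmb10 overlapped control on lab chow, on high fat and under diet restriction, and lay above control on the atherogenic diet. Markers of Kupffer cells, the resident macrophages of liver, had median differences from control of -0.71, -0.02, -0.94 and 1.08 on these diets, in that order. Their summed signal was 16380, 12501 and 9220 on atherogenic replicates 1, 2 and 3, against 3658 to 4981 in control and 1861 to 2913 on the Western diet. On high fat replicates 1, 2 and 3 it was 6576, 3730 and 3581. Of the 10 kept markers, 4 were higher and none lower against control, where 9.03% and 5.88% of all genes were called. Against Western 9 were higher, where 11.3% of all genes were higher. Marco, Timd4, Cd68 and Fcgr1 did not pass the filter. Under diet restriction the summed signal was 1749, 4130 and 1624, and replicate 2, with the highest, also had the highest Psmb10, Psmb8 and Psmb9 of that diet. Of the 10 kept markers, 1 was lower than control on that diet and none higher, against 16.0% and 13.5% of all genes. Cd163 had a mean of 7.92 against 7.46 in control. The part of Kupffer cells in these differences was not tested. Summed hepatocyte signal on the atherogenic diet was 348332 to 376724, against 376989 to 395666 in control.

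**Figure D3:**
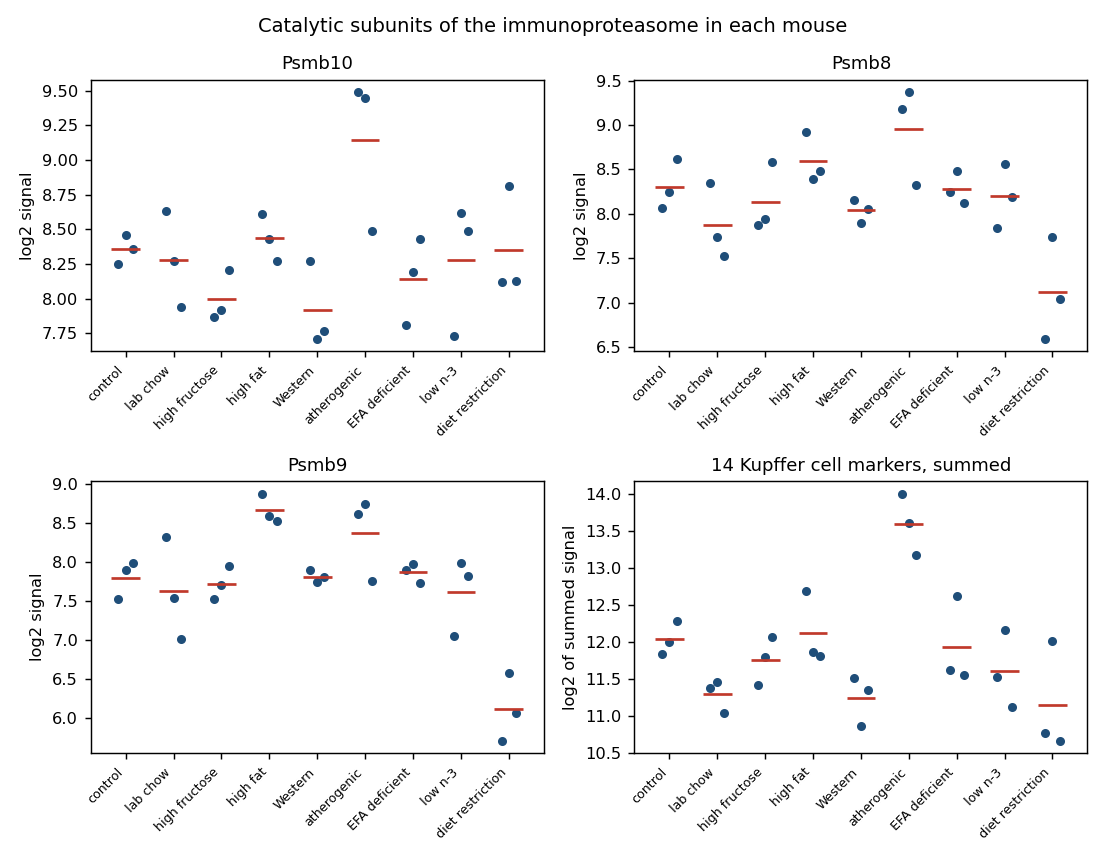
Log2 signal of the immunoproteasome genes Psmb10, Psmb8 and Psmb9, and log2 of the summed signal of 14 Kupffer cell markers, in each mouse (points, with the mean of 3 as a red line) on 9 diets; axes do not start at 0. The atherogenic arrays hold the highest marker sums, 9220 to 16380 before the log, and diet restriction holds the lowest Psmb9 values.

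The ATPase ring of the base unfolds substrates. Its 6 genes, Psmc1 to Psmc6, had median differences from control of 0.09 to 0.23 across the 8 diets. Psmc1, the Rpt2 subunit, measured 10.21, 10.43 and 10.48 in control, 10.55, 10.59 and 10.61 on lab chow, and 10.66, 10.92 and 10.78 under diet restriction. The diet mean was highest under restriction, at 133% of control (116 to 153, adjusted p = 0.0086), and the lab chow mice lay between control and restricted mice. Without control replicate 1 the adjusted p was 0.055. Against lab chow, Psmc1 under diet restriction was at 115% (adjusted p = 0.11) and was not called.

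Psmc6, the Rpt4 subunit, was the member that fell on high fructose. It measured 9.70, 9.60 and 9.57 in control and 9.14, 9.42 and 8.71 on high fructose, which is 69.1% of control (54.4 to 87.7, adjusted p = 0.044). Its 3 probes differed in size, from -0.97 for the dimmest to -0.26, and were of opposite sign on 5 of the other diets. Taken alone in limma, the dimmest probe passed on high fructose (adjusted p = 0.027). The others, at -0.38 and -0.26, did not (adjusted p = 0.10 and 0.28). The gene's call was lost without any 1 of control replicates 1, 2 and 3 (adjusted p = 0.12, 0.093 and 0.085) or of high fructose replicates 1 and 3 (adjusted p = 0.070 and 0.22). Psmc2, Psmc3, Psmc4 and Psmc5 were not called against control on any diet.

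Among the non-ATPase subunits of the base, Psmd4 was the outlying gene. It encodes Rpn10, which binds ubiquitin chains. The control arrays measured 9.20, 9.56 and 9.39, the high-fat arrays 10.53, 10.41 and 10.36, and the Western arrays 9.61, 9.86 and 10.21. The high-fat arrays were above all 24 others, and their mean was 207% of control (167 to 258, adjusted p = 6.5e-05). Both kept probes of Psmd4 rose on high fat, by 0.96 and 1.14 on the log2 scale, and the call held when any array was left out.

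On the Western diet Psmd4 was 142% of control (115 to 177, adjusted p = 0.035). That call was lost without control replicates 1 or 3 (adjusted p = 0.14 and 0.085) and without Western replicates 2 or 3 (adjusted p = 0.063 and 0.16). Taken alone, the kept probes had adjusted p of 0.057 and 0.039 in limma. On the atherogenic diet Psmd4 measured 9.57, 9.49 and 9.42, which overlapped control. The other genes of the group, Psmd1, the scaffold Rpn2, and Psmd2, the Rpn1 subunit that docks shuttle proteins, were not called on any diet. Their control means were their lowest, 10.81 and 10.05.

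The lid held changes in both directions under diet restriction. Psmd11 encodes Rpn6, which clamps the lid to the core. It measured 11.12, 11.01 and 11.23 in control, 11.12, 11.33 and 11.36 on lab chow, and 10.39, 10.78 and 10.69 under diet restriction. The restricted arrays were the 3 lowest of the 27, at 70.8% of control (61.2 to 82.0, adjusted p = 0.0027) and 63.8% of lab chow (55.1 to 73.9, adjusted p = 4e-05). The 3 kept probes differed from control by -0.60 to -0.44, and 2 of them passed (the third had adjusted p = 0.053). Both calls held when any array was left out. Averaging in 5 further probes below the filter moved the difference from control to -0.14 (adjusted p = 0.26).

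Psmd13, the Rpn9 subunit, rose under the same diet. It measured 7.20, 7.64 and 7.66 in control, 7.67, 7.71 and 7.62 on lab chow, and 7.77, 8.13 and 8.16 under restriction. The restricted arrays lay above both groups, at 144% of control (118 to 174, adjusted p = 0.015) and 128% of lab chow (105 to 155, adjusted p = 0.042). The call against control was lost without control replicate 1 (adjusted p = 0.096), or diet restriction replicates 2 or 3 (adjusted p = 0.057 and 0.067). The call against lab chow was lost without diet restriction replicates 2 or 3 (adjusted p = 0.13 and 0.15) or lab chow replicates 1, 2 or 3 (adjusted p = 0.081, 0.069 and 0.11).

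Psmd14, the Rpn11 deubiquitinase of the lid, measured 9.64, 10.65 and 10.51 under diet restriction and 10.54, 10.53 and 10.81 in control. Replicate 1 of diet restriction was far below the rest, and the gene was not called. Psmd7, the partner of Rpn11, measured 8.83, 9.06 and 8.85 on the EFA-deficient diet, above control at 147% (adjusted p = 0.11). Psmd3, Psmd6, Psmd8 and Psmd12 were not called on any diet.

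Psmd9 is the p27 chaperone that helps the base assemble, and it had the largest difference from control among the members together with Psmd4. It measured 7.87, 8.17 and 8.01 in control, 7.94, 7.96 and 7.77 on lab chow, and 9.37, 8.95 and 8.87 under diet restriction. The restricted arrays were the 3 highest of the 27, at 207% of control (172 to 250, adjusted p = 1.1e-05) and 226% of lab chow (187 to 272, adjusted p = 5.4e-07). Both calls held when any array was left out. A single probe measured Psmd9, since the others of the gene did not pass the filter.

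The lowest Psmd9 values came from the atherogenic diet, 7.58, 7.53 and 7.57. They lay below all other arrays and were 73.0% of control (60.6 to 88.0, adjusted p = 0.029). That call was lost without atherogenic replicates 1, 2 or 3 (adjusted p = 0.057, 0.067 and 0.059) or control replicates 2 or 3 (adjusted p = 0.13 and 0.075). High-fructose and high-fat mice lay above control, at 128% (adjusted p = 0.088) and 129% (adjusted p = 0.078). The other chaperones, Psmd5 and Psmd10, which encodes gankyrin, were not called on any diet.

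By diet, the small shift of the whole group was largest on high fat. The median difference of the 35 members was 0.19 there, with 29 above 0, while the median of all kept genes was -0.02. At an unadjusted p under 0.05 there were 13 members (37.1%), all higher, against 25.3% of all genes in either direction. Among the 13, the brighter kept probe of Psmc4, Psmb3 and Psma5 differed from control by -0.05, 0.06 and 0.22. Their dimmer probe differed by 0.52, 0.50 and 0.48. The kept probes of Psma7 (0.30 and 0.35) and Psmd4 (0.96 and 1.14) lay closer together. Without control replicate 1 or high fat replicate 1, only Psmd4 remained called. The EFA-deficient diet also had 29 members above 0, with a median of 0.11 (0.06 to 0.19 over the alternatives), and the other medians were 0.03 to 0.11. Over the alternatives the median ranged from -0.04 to 0.10 on the atherogenic diet and from -0.01 to 0.11 on high fructose, so that its sign was not settled there. The control mice themselves differed, with member medians of -0.10, 0.03 and 0.07 around their mean, and the standard deviation of this median between mice of a diet was 0.11.

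Under diet restriction the 3 mice differed widely. Their member medians were -0.09, 0.32 and 0.03 against the control mean, while medians of all genes were -0.04, 0.00 and -0.04. Replicate 2 was the highest of the 27 mice and replicate 1 among the lowest. The median of the 35 differences was 0.09, and it was -0.03 without replicate 2. The count of members called, 7, was 2 without control replicate 1, 3 without diet restriction replicate 2 and 4 without diet restriction replicate 3.

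**Figure D4:**
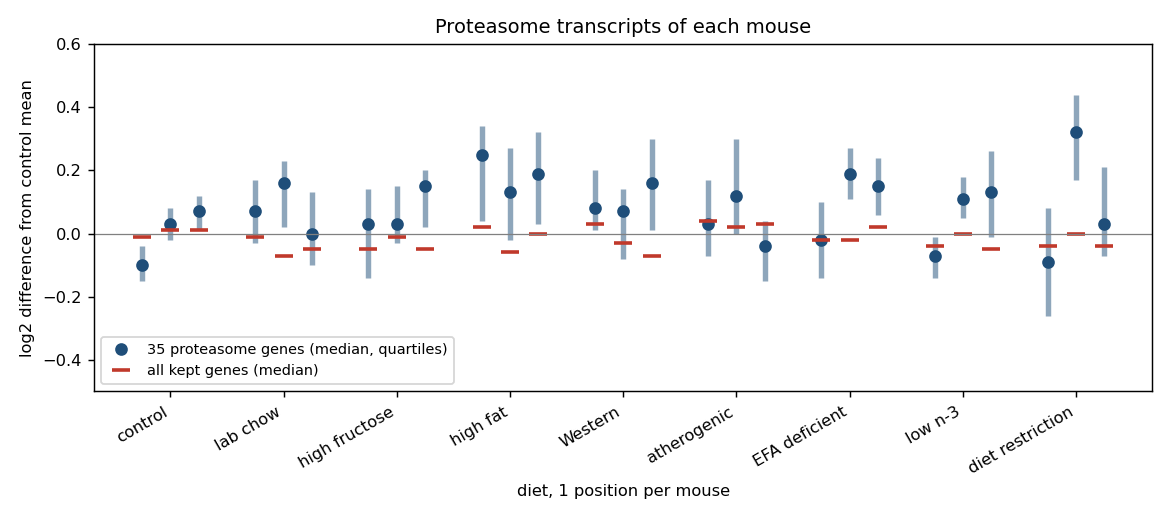
Median (points) and quartiles (bars) of the log2 differences of 35 proteasome genes from their control means in each of 27 mice, with the median of all 6478 kept genes (red dashes). Diet restriction replicate 2 stands highest at 0.32, and the 3 high-fat mice lie at 0.13 to 0.25.

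Diet restriction against lab chow, which compares the ration on the same feed, had 2 members higher (Psmd9 and Psmd13) and 2 lower (Psmd11 and Psma5), against 19.2% and 17.6% of all genes. The members' median was 0.03, and it was -0.09 without diet restriction replicate 2 and -0.01 without lab chow replicate 3. The count of 4 was 8 without diet restriction replicate 1, 7 without diet restriction replicate 2 and 2 without lab chow replicate 1. Atherogenic against Western, diets with fat and sucrose of which the former adds cholic acid and more cholesterol, had 1 higher (Psmb10) and 1 lower (Psmb7), against 11.3% and 6.50%. The count of 2 was 3 without Western replicates 1 or 2 or atherogenic replicate 1. The 2 kept probes of Psma6 moved in opposite directions there, by -0.28 (adjusted p = 0.036) and 0.34 (adjusted p = 0.024), and the gene's mean was not called.

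Across the 27 arrays, most pairs of members had a positive correlation. The median Pearson correlation between pairs of members was 0.28, with 84.2% of pairs above 0, against 0.02 and 52.0% for all kept genes. After each diet's mean was subtracted it was 0.43, with 92.3% of pairs above 0, against 0.02 and 53.3%. These are descriptions over 27 arrays, in which members of an array share its RNA preparation and normalization. With diet means subtracted, Psmb4 and Psmc2 had the highest median correlation with the other members, 0.61 each. The lowest were Psmd9 (-0.02) and Psmc6 (0.03). Without that subtraction the lowest was Psmd11, at -0.03, which was 0.35 with it.

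**Figure D5:**
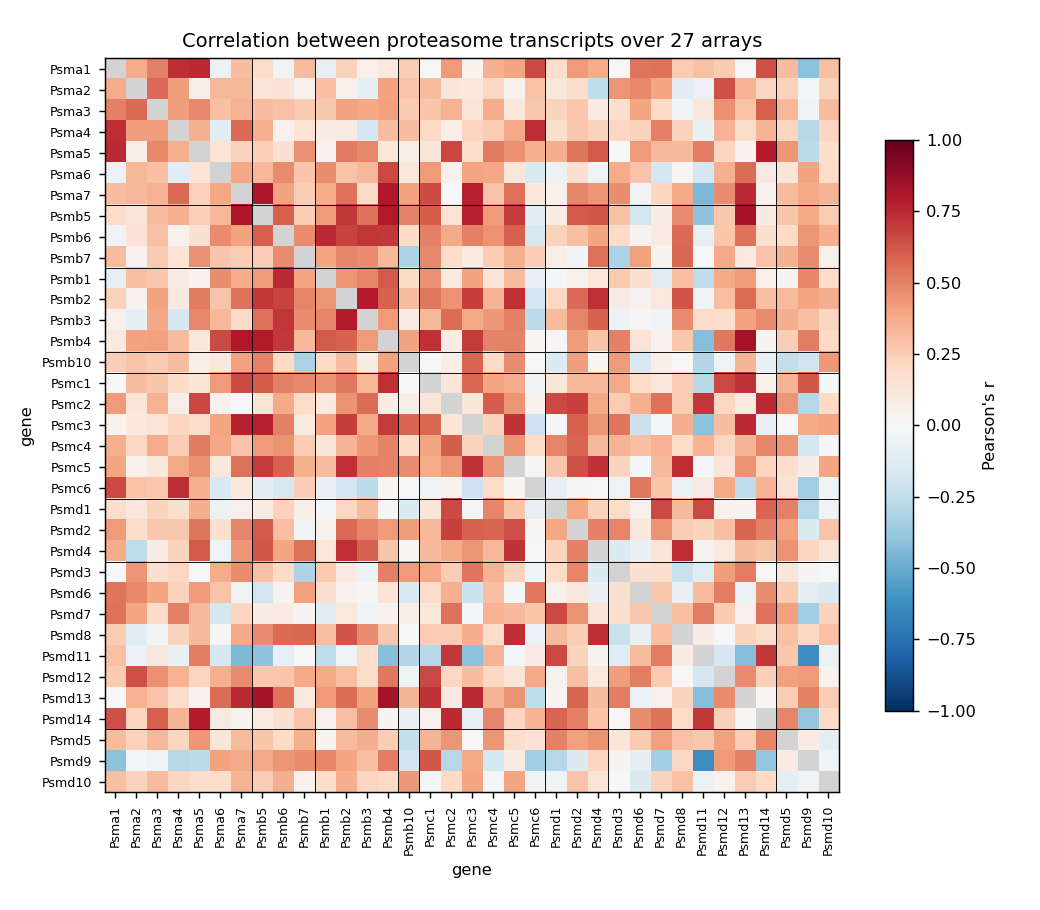
Pearson correlation between each pair of 35 proteasome genes over 27 arrays (red above 0, blue below 0), with genes ordered and ruled by position in the particle and the diagonal in grey. Most pairs are red, with a median of 0.28, and the rows of Psmd11, Psmd9 and Psmc6 hold many of the blue cells.

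Genes that act with the proteasome were counted in the same fit. Of 15 kept activators, chaperones and partners, 2 were called on high fat, 2 on the EFA-deficient diet, and 1 each on the Western diet and under diet restriction. Higher and lower calls over all genes were 6.00% and 3.33% on high fat and 3.04% and 2.47% on the EFA-deficient diet. They were 4.31% and 4.48% on the Western diet and 13.5% and 16.0% under diet restriction. Psmg1, a chaperone of the alpha ring, was higher on high fat (132%, adjusted p = 0.016), where Sem1, a small lid subunit with another style of symbol, was lower (80.1%, adjusted p = 0.043). Zfand5, a zinc finger protein that activates the proteasome, was higher on the Western diet (144%), on the EFA-deficient diet (168%) and under diet restriction (153%), with adjusted p of 0.032, 0.0029 and 0.012. Txnl1, a thioredoxin-like protein bound to the regulatory particle, was higher on the EFA-deficient diet (140%, adjusted p = 0.023). Usp14, a deubiquitinase that docks on the base, was 72.6% of lab chow under diet restriction (adjusted p = 0.00078).

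Of 19 kept genes for ubiquitin, its activating and conjugating enzymes and shuttles, diet restriction had 1 higher and 2 lower against control, and 2 higher and 5 lower against lab chow. Of all genes, 13.5% and 16.0%, and 19.2% and 17.6%, were called, so these counts lay near the background. Ubqln2, a shuttle that carries ubiquitinated proteins to the proteasome, fell to 59.8% of lab chow (50.2 to 71.2, adjusted p = 6.1e-05). The shuttle Rad23b fell to 79.3% of control under diet restriction (adjusted p = 0.034) and to 71.8% on the atherogenic diet (adjusted p = 0.0029). Faf1, an adaptor of the unfoldase Vcp, rose to 153% of control under diet restriction (adjusted p = 0.00056).

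Of 11 kept transcription factors and processing enzymes of proteasome genes, 5 were higher under diet restriction and none lower, against 13.5% and 16.0% of all genes, and the list's median difference was 0.17 against -0.03 over all genes. Maff, a small Maf protein that pairs with Nfe2l factors, measured 3.13 to 4.02 in control, below the filter's 6.64, and 7.32 to 7.61 under diet restriction, at least 1.78-fold higher (adjusted p = 8.8e-11). It lay no higher than 3.57 on lab chow and cleared the filter in the group of its call. Maff therefore adds no support to the count of 5 or to the list's median of 0.17, both of which include it. Mafk, Foxo4, Nfya and Nfe2l3 of the same list did not pass the filter. Foxo3 rose to 216% of control (162 to 289, adjusted p = 0.00084), Bach1, a repressor at antioxidant response elements, to 196% (adjusted p = 0.022), and Mafg to 153% (adjusted p = 0.031). Nfyc, a subunit of NF-Y named after its value was seen, rose to 134% (adjusted p = 0.012). Nfe2l1, the main activator of proteasome genes, was 103% of control (85.2 to 125, adjusted p = 0.88) under diet restriction and was not called on any diet. On the atherogenic diet Nfe2l2 rose to 175% (130 to 236, adjusted p = 0.015) and Mafg to 229% (adjusted p = 9.5e-05). On that diet the 5 members with TGACNNNGC in the promoter were at 125% (Psmb5), 92.3% (Psmd12), 91.4% (Psmb6), 84.6% (Psmc6) and 73.0% (Psmd9) of control, of which Psmd9 passed, and any link between these factors and the members was not tested.

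Of 11 kept genes of the immunoproteasome and class I presentation, which include Psmb8 and Psmb9 above, 6 were lower and 1 higher under diet restriction, against 16.0% and 13.5% of all genes, with a median of -0.53. Tap1, a subunit of the peptide transporter, fell to 39.3% of control (adjusted p = 0.0034) and the class I chain H2-D1 to 69.2% (adjusted p = 0.017), while the trimming peptidase Erap1, named after its value was seen, rose to 131% (adjusted p = 0.037). On the atherogenic diet 2 rose and none fell, against 9.03% and 5.88% of all genes. They were Nlrc5, an activator of class I genes (244%, adjusted p = 0.038), and Tapbp, which loads peptide on class I molecules (150%, adjusted p = 0.016). Against Western, 4 rose and none fell, against 11.3% and 6.50%, among them Tapbp (199%, adjusted p = 0.00012) and Psme1, an interferon-responsive activator of the core (136%, adjusted p = 0.016). The signal of Kupffer cell markers on these diets is given above, and their part was not tested.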

How the data were processed

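Liver RNA of 27 mice, 3 per diet, was hybridized to Affymetrix mouse arrays. The authors preprocessed the arrays with GCRMA, which subtracts background and equalizes arrays. The log2 values they deposited entered the fits with no further scaling. Probes were paired with symbols by the platform table, and gene values used those with a single symbol. The study's filter, a diet mean over log2(100) on 1 or more diets, was applied to probes, and the remaining probes of a symbol were averaged. A gene's value therefore rests on bright probes, and probes of some types can bind related transcripts.

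With limma 3.58.1 in R 4.3.3 with version 1.17.8 of data.table, a model of 9 diet means was fitted to the 27 arrays, and diets were contrasted with the AIN-93 control. P was adjusted by Benjamini and Hochberg over 6478 genes and 8 diets together at 0.05, and within each contrast for diet restriction against lab chow, atherogenic against Western and the F test. Percents are given with 95% confidence intervals. Labels do not say how mice were caged, so the spread between arrays is that between the mice sampled. The fit was tested on simulated data. Alternatives were Dunnett's test (multcomp 1.4.28), other filters, probe rules, scalings, priors, array weights, a fit of the groups compared alone, a replicate block, p adjusted within diets, and each array left out. Motifs and tables used Python 3.11.15, numpy 2.4.6 and pandas 2.3.3, and plots matplotlib 3.10.9. Members and gene lists were chosen with earlier results of these data known. All kept members could be named, and of other genes at most 4 called per list and comparison, largest changes first, with the exceptions stated. The number of arrays limits the precision.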

Additional observations from a re-analysis of the deposited data

How the results depend on the processing

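No member call changed direction under any alternative run. The calls of Psmd4 on high fat, of Psmd9 under diet restriction against control and lab chow, of Psmd11 under diet restriction against lab chow and of Psmb7 on the atherogenic against the Western diet held under every alternative run; that of Psmb10 against Western was lost in a fit of those groups alone (adjusted p = 0.059), and the other 13 calls were lost under 2 to 10 alternatives each. The cause was not tested. Counts of members called moved as follows. A fit of the groups compared alone, with fewer arrays, called 0 on high fructose, the Western and the atherogenic diet, 1 on high fat, under diet restriction and for atherogenic against Western, and 2 for diet restriction against lab chow. With no filter, which averages in dim probes and tests more genes, the counts were 0 on high fructose, Western and atherogenic, 1 on high fat and 3 under diet restriction. Array weights gave 1 on lab chow, 3 on high fructose, 7 on high fat, 4 on atherogenic, 9 for diet restriction against lab chow and 19 in the F test. Centring arrays on their medians gave 1 on lab chow, 0 on high fructose, 4 on high fat and 5 for atherogenic against Western. The brightest probe gave 0 on high fructose and Western, 1 on atherogenic and 4 for atherogenic against Western. A fit of probes gave 4 on high fat, 1 on atherogenic and 4 for atherogenic against Western. Dunnett's test gave 4 on high fat, and p adjusted within diets gave 0 on high fructose. Leaving out 1 array gave 0 to 2 on high fructose, 1 to 3 on high fat, 0 to 1 on Western, 0 to 1 on atherogenic, 2 to 8 under diet restriction, 2 to 8 for diet restriction against lab chow, 2 to 3 for atherogenic against Western and 10 to 16 in the F test. Leaving out diet restriction replicate 2 turned the median member difference to -0.03 against control and to -0.09 against lab chow, and the ranges over arrays left out were -0.03 to 0.16 and -0.09 to 0.11. EFA-deficient and low n-3 stayed at 0 members in every alternative run.

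Replicate numbers were not treated as pairs. Deviations from diet means of same-numbered arrays had a median correlation of 0.02, -0.01 and 0.00 for numbers 1, 2 and 3. They ranged from -0.25 to 0.41, -0.27 to 0.34 and -0.17 to 0.38. Arrays of different numbers had a median of -0.01 and a range of -0.38 to 0.33. These correlations cannot show whether mice were paired. With a replicate block, high fructose had 2 members called, high fat 3, diet restriction against lab chow 6 and the F test 14, and the other counts were as without it.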
